A study of Mus musculus with 12 samples.

Results

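The tissue inhibitors of metalloproteinases (TIMPs) are encoded in the mouse by Timp1, Timp2, Timp3 and Timp4. These 4 genes were taken by symbol, by a rule that uses no measured value, from the 55491 entries of the deposited tables of a bleomycin lung fibrosis study. All 4 passed the filter on low counts, among 17909 genes tested. TIMPs are secreted proteins that bind the active site of matrix metalloproteinases (MMPs) and of some ADAM and ADAMTS proteases, and so set how fast extracellular matrix and shed cell-surface proteins are cut. Timp2 also takes part in the activation of pro-MMP2 by the membrane protease MMP14, Timp3 stays bound to the matrix and inhibits ADAM17 and aggrecan-cutting ADAMTS proteases, and Timp1 is an inducible member that binds CD63 at the cell surface. In scarring lung, Timp1 is known as a gene induced by injury and inflammatory cytokines.

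Polyadenylated RNA of whole lungs was sequenced from 12 wild-type (WT) male C57BL/6J mice aged 10 weeks, in 3 groups of 4. Every mouse had received oropharyngeal bleomycin, a DNA-damaging drug that injures the alveoli (0.0125 U for each mouse, or roughly 0.5 U/kg). One group was taken on day 14 with no further treatment. The others were taken on day 21, after intravenous (retro-orbital) injections begun on day 14. In the vehicle group these were phosphate-buffered saline. In the nanoparticle (NP) group each of 5 daily doses, up to day 18, carried 2 mg of particles made of poly(lactide-co-glycolide) under a poly(ethylene-alt-maleic anhydride) coat, 609.22 ± 15.30 nm in diameter. No group without bleomycin was analysed here, so the values cover the course from day 14 to day 21 and not the induction by injury. Each library is a different mouse, and in whole-lung RNA fewer cells of a type and less RNA per cell cannot be told apart.

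Libraries held 24138582 to 42714693 expected counts. The lung label was matched by its defining markers, with mean TPM (transcripts, scaled for length and library) of 35850 for Sftpc, 92249 for Scgb1a1 and 2322 for Ager, while heart muscle markers were also present (Myl7 at 100.6). Single libraries stood apart in ways that touch the results below: NP replicate 3 had a summed TPM of 5617 over 8 neutrophil markers, against 134.9 to 559.5 in the other 11 libraries, and day 14 replicate 2 had 1410 over 16 AP-1 and immediate early genes, against 621.1 to 911.2. The neutrophil sums were 430.6, 394.7 and 399.1 in NP replicates 1, 2 and 4, next to 134.9 to 341.3 on day 14 and 237.5 to 559.5 with vehicle. The part of these libraries and markers in the results was not tested.

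The 4 genes lie on different chromosomes (GRCm38, GENCODE M21 annotation). Timp1 (ENSMUSG00000001131, X:20870166-20874735, plus strand), Timp3 (ENSMUSG00000020044, 10:86300372-86349506, plus strand) and Timp4 (ENSMUSG00000030317, 6:115241892-115252205, minus strand) each lie inside a synapsin gene on the opposite strand: Syn1, Syn3 and Syn2. Timp2 (ENSMUSG00000017466, 11:118301069-118355740, minus strand) instead contains Cep295nl on its own strand. Coding sequences were 615, 660, 633 and 672 bp long for Timp1 to Timp4. Exons of Timp3 shared 1733 bases with those of Syn3 (21.3% of its exonic bases), and those of Timp4 shared 90 with Syn2 (1.53%), while Timp1 and Timp2 shared 0. The strand setting of the counting was not given in the sources used here, so reads from shared bases cannot be assigned by strand. Syn3 had 154 to 521 expected counts, far below the 23432 to 64136 of Timp3, whereas Syn2 had 362 to 587, above the 43 to 74 of Timp4. How many of the Timp4 counts came from shared bases was not tested. None of Syn1, Syn2, Syn3 and Cep295nl passed the test in any comparison. The longest exact stretch shared by transcripts of any 2 TIMP genes was 18 bases, between Timp3 and Timp4.

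**Figure D1:**
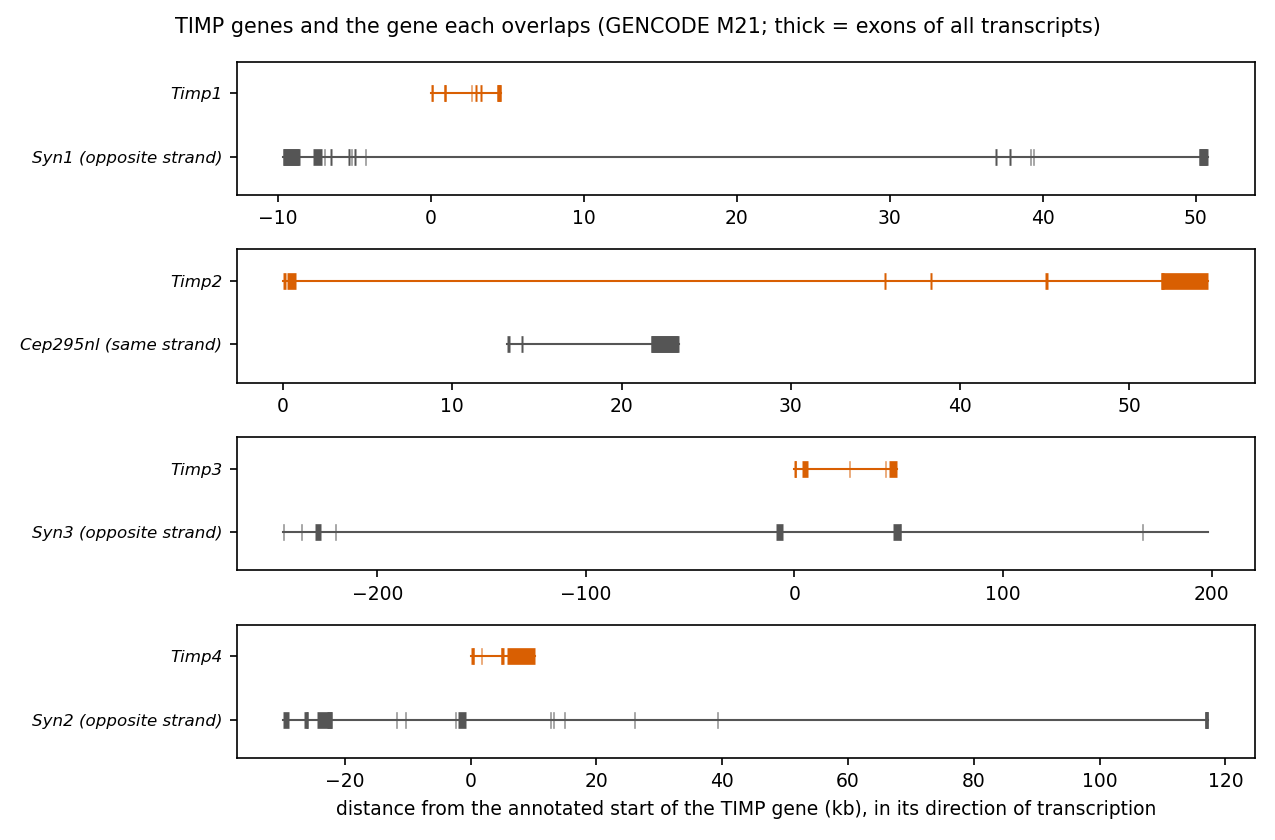
Position of each TIMP gene (orange) and of the gene it overlaps (grey), as distance in kb from the annotated start of the TIMP gene in its direction of transcription; thick bars are exons of all GENCODE M21 transcripts. Timp1, Timp3 and Timp4 sit within introns or exons of a synapsin gene on the opposite strand, and Cep295nl sits within Timp2.

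Timp1 carries the expression change described below and Timp3 a weaker, uncalled difference, so bases before their starts are printed, from RefSeq promoter windows (GRCm38.p6, 250 bases before to 50 after the start; all 4 genes matched). Capitals mark matches, on either strand, to an AP-1 variant (TGAGTAA), an ETS core (AGGAAG) and an SP1 GC box (GGGCGG).
Timp1, chrX:20869916-20870165, plus strand: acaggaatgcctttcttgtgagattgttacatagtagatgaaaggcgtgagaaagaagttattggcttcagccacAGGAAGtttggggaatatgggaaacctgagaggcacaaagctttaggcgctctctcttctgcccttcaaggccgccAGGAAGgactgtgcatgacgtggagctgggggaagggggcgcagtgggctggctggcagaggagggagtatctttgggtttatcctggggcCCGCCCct
Timp1, chrX:20870186-20870215, plus strand: ggtggaTGAGTAAtgcgtccAGGAAGcctg
Timp3, chr10:86300162-86300371, plus strand: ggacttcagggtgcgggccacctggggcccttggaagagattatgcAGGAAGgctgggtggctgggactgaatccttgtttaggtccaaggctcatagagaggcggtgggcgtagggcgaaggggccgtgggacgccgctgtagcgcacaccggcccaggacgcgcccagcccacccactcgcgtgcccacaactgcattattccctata
The second line lies 21 to 50 bases after the Timp1 start and holds TGAGTAA at 27 to 33 and AGGAAG at 41 to 46. TGAGTAA was found in the window of Timp1 and not of the others, and in 2.7% of the promoters of 27025 genes. AGGAAG occurred 3 times for Timp1, once each for Timp3 and Timp4 and 0 times for Timp2 (35.1% of promoters hold it). GGGCGG occurred once for Timp1 and Timp2, 2 times for Timp3 and 0 times for Timp4 (35.9%). The Timp3 line covers -250 to -41 from the RefSeq start and stops before the GENCODE start. Both GGGCGG matches of Timp3, at -15 to -10 and 14 to 19, therefore lie outside the printed line. The Timp2 window (chr11:118355362-118355661, minus strand) lies wholly inside the GENCODE gene, which starts at 118355740, so it is not sequence upstream of that start. The canonical AP-1 motif TGANTCA (7.93%) and TATAAA (14.2%) matched none of the 4 windows. The windows of Timp2 and Timp3 were rich in GC (68.7% and 67.0%) with 25 and 24 CpG dinucleotides, and those of Timp1 and Timp4 held 55.0% and 53.3% GC with 8 and 2 CpG, next to a median of 52.7% and 7 over all promoters. These are matches of letters, with no measure of binding.

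Levels were compared between genes as TPM, which accounts for transcript length. In every group the order of the group means was Timp2, Timp3, Timp1, Timp4. Timp2 averaged 460.5 ± 49.1 (SD, n = 4) TPM on day 14, 461.4 ± 31.9 in the vehicle group and 418.9 ± 12.2 in the NP group. Timp3 averaged 437.4 ± 79.7, 347.5 ± 43.8 and 367.1 ± 53.1 TPM in the same order. These neighbours did not separate on day 14 or in the NP group, where 3 of 4 libraries each had more Timp2 than Timp3. In the vehicle group all 4 had more Timp2, at a mean ratio of 1.34 ± 0.12. Timp1 stood well below, at 73.2 ± 19.9, 25.4 ± 4.52 and 30.8 ± 7.89 TPM, and Timp4 was near 1 TPM in every group, between 0.51 and 1.45 in single libraries. Over all 12 libraries the range of Timp1 (21.2 to 91.0 TPM) lay below that of Timp3 (296.3 to 498.6) and above that of Timp4. Timp4 in TPM also depends on transcript choice, as its 2 annotated transcripts are 5496 and 945 bp long and its ratio of CPM to TPM ranged 1.96-fold between libraries, against 1.07 to 1.15-fold for the others.

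**Figure D2:**
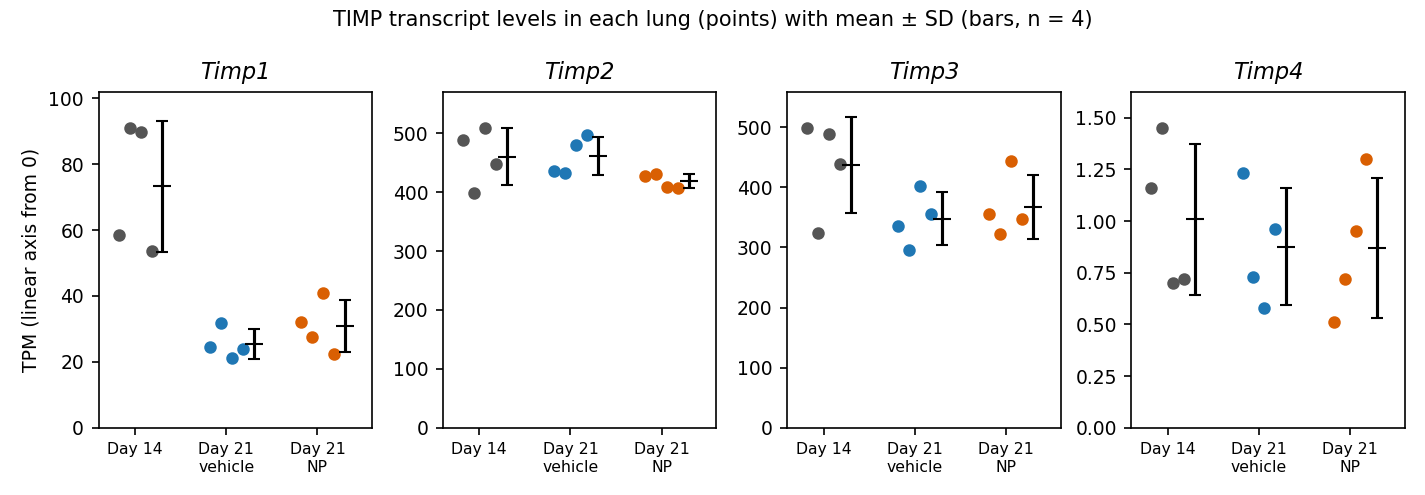
TPM of each TIMP gene (separate linear axes from 0) in the 4 lungs of each group; points are single lungs and bars the mean ± SD. Timp1 on day 14 (53.6 to 91.0 TPM) lies above all 8 day 21 lungs (21.2 to 41.0 TPM). The groups overlap for the other genes, except that Timp2 in the NP lungs (407.8 to 430.9 TPM) lies just below the vehicle lungs (432.5 to 496.7). The share of all genes without overlap was counted in CPM only (3.55% between NP and vehicle).

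Timp1 was the one TIMP gene that passed the test. It was lower on day 21 than on day 14 in both groups, and vehicle and NP lungs overlapped. In CPM (counts scaled by TMM library sizes, without regard to length), the day 14 lungs held 24.0, 36.7, 35.4 and 20.6, the vehicle lungs 9.59, 12.1, 8.28 and 9.61, and the NP lungs 12.3, 10.7, 16.2 and 8.73. The lowest day 14 lung, replicate 4, was above the highest day 21 lung, NP replicate 3. From day 14 to day 21 with vehicle, the log2 level of Timp1 fell by 1.56 (SE 0.22, 95% confidence interval -2.03 to -1.08; quasi-likelihood test of edgeR with Benjamini-Hochberg adjustment, adjusted p = 0.00275), a 2.94-fold lower level (interval 2.11 to 4.10). With NP, it fell by 1.28 (SE 0.22, -1.76 to -0.81, adjusted p = 0.00360), 2.43-fold lower (1.75 to 3.38). Both values use the same day 14 lungs. In the vehicle comparison 10.3% of the 17909 genes tested passed the threshold of 0.05 (6.51% lower), and in the NP comparison 14.7% did (8.56% lower). By the size of the fall, Timp1 ranked 35th and 122nd of all genes tested in these comparisons. Groups that did not overlap, as for Timp1, were found for 17.9% of genes in the vehicle comparison (10.7% lower on day 21) and 19% in the NP comparison (10.6% lower). The fall was called in all 12 fits that left out one library and under all 12 other settings tried.

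Between NP and vehicle lungs on day 21, Timp1 differed by 0.27 on the log2 scale (NP minus vehicle, SE 0.22, interval -0.21 to 0.76, adjusted p = 0.999 in edgeR), which was within the spread. The interval leaves room for a level from 0.864 to 1.69 times that of vehicle. Without NP replicate 3, the library with the high neutrophil markers, the difference was 0.10. No gene was called in this comparison (0% of 17909), with 762 genes at an unadjusted p under 0.05, while DESeq2 called 19 and limma on TPM with a pseudocount of 0.1 called 1. Groups did not overlap for 3.55% of genes, 1.75% lower with NP.

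Timp2, the most abundant TIMP transcript per length and a gene of broad mesenchymal expression, held close to one level. Its CPM values were 802, 745, 853 and 802 on day 14, 773, 745, 779 and 847 with vehicle and 744, 788, 738 and 749 with NP. In CPM the groups overlapped throughout, and the highest of the 12 libraries was 1.16 times the lowest. The differences from day 14 were -0.03 with vehicle (SE 0.06, interval -0.16 to 0.11) and -0.09 with NP (-0.22 to 0.05), and the NP minus vehicle difference was -0.06 (-0.19 to 0.08). None passed the test (adjusted p = 0.824, 0.386 and 0.999 in edgeR). In TPM, in contrast to CPM, the NP lungs (407.8 to 430.9) did not overlap with the vehicle lungs (432.5 to 496.7). The difference was -0.14 on log2 of TPM plus 1, which limma did not call. In CPM 3.55% of all genes did not overlap between these groups, and the share in TPM was not counted.

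Timp3, the matrix-bound TIMP, was 1536, 996, 1476 and 1293 CPM on day 14, 993, 883, 1205 and 1120 with vehicle and 1054, 973, 1343 and 1063 with NP. Day 14 replicate 2 was low in its group and lay among the day 21 lungs, so the groups overlapped. The vehicle minus day 14 difference was -0.34 (SE 0.14, interval -0.64 to -0.03), which did not pass the threshold over all genes (adjusted p = 0.141 in edgeR). Without day 14 replicate 2, the library with the high immediate early genes, it was -0.44 and passed (adjusted p = 0.0365). The NP minus day 14 difference was -0.26 (-0.56 to 0.04, adjusted p = 0.232 in edgeR), and NP minus vehicle was 0.08 (-0.22 to 0.38), turning to -0.03 without NP replicate 3.

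Timp4, known chiefly from heart and fat, was low, at 43 to 74 expected counts. Its CPM values were 1.77, 2.30, 1.60 and 1.59 on day 14, 2.40, 1.63, 1.73 and 1.98 with vehicle and 1.48, 1.79, 2.07 and 2.28 with NP. All 3 groups covered much the same range. The differences were 0.09 for vehicle minus day 14 (SE 0.19, interval -0.32 to 0.49), 0.07 for NP minus day 14 (-0.34 to 0.48) and -0.02 for NP minus vehicle (-0.43 to 0.39), none called in edgeR. The summed TPM of 10 heart muscle markers ranged from 228.5 to 644.4 over all libraries, and its part in the Timp4 values was not tested.

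**Figure D3:**
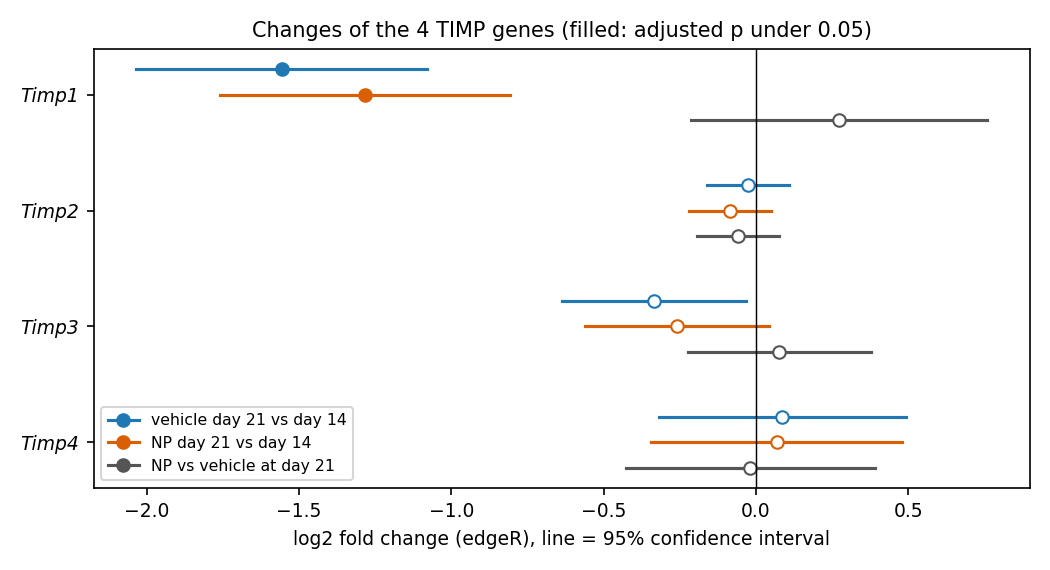
Log2 fold changes of the 4 TIMP genes in the 3 comparisons with 95% confidence intervals from edgeR; filled points passed an adjusted p of 0.05. Only the 2 values of Timp1 against day 14, -1.56 and -1.28, are filled.

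Summed over the 4 genes, TIMP transcripts averaged 972.0 ± 122.0 TPM on day 14, 835.2 ± 66.4 with vehicle and 817.6 ± 54.1 with NP. Timp1 made up 7.68% ± 2.63 of the sum on day 14, 3.08% ± 0.79 with vehicle and 3.73% ± 0.72 with NP (SD, n = 4). Timp2 made up 47.5% ± 0.99, 55.3% ± 1.76 and 51.4% ± 4.02, and Timp3 44.8% ± 3.47, 41.5% ± 2.37 and 44.7% ± 3.53. Of the mean difference of the sum between vehicle and day 14, -136.8 TPM, Timp3 contributed -89.8 and Timp1 -47.8. Of the -154.5 TPM between NP and day 14, Timp3 contributed -70.3, Timp1 -42.4 and Timp2 -41.6. Of these genes only Timp1 had a called difference.

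**Figure D4:**
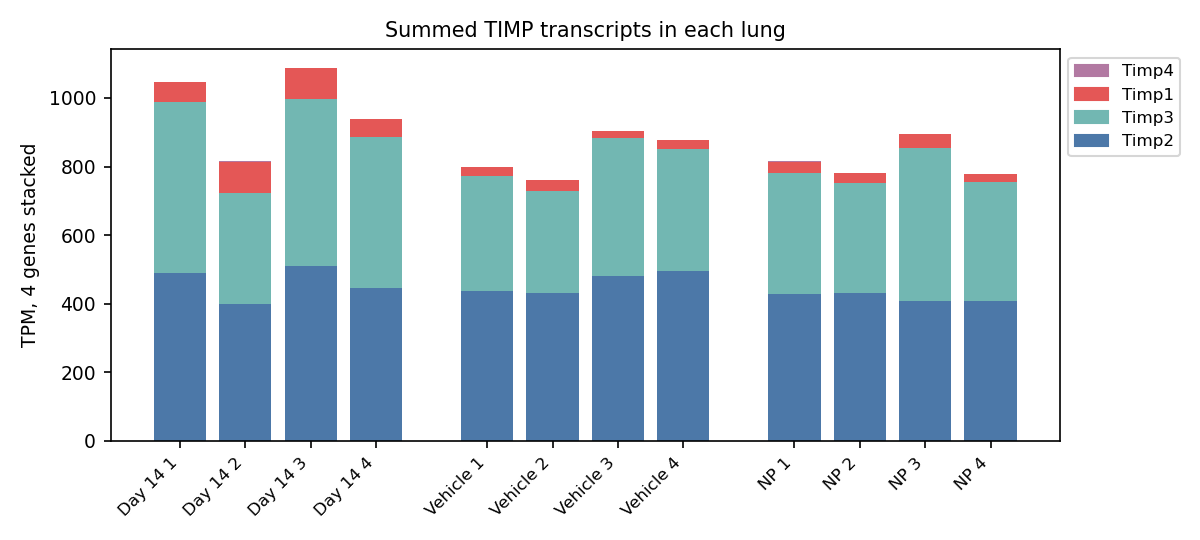
TPM of the 4 TIMP genes stacked for each of the 12 lungs, on a linear axis from 0. Timp2 and Timp3 fill most of every bar, Timp1 is thickest in the 4 day 14 lungs, and Timp4 is too low to be seen.

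The proteases that TIMPs inhibit were less uniform. Of 23 MMP genes 16 were tested, and with vehicle 0 rose and 3 fell against day 14 (18.8% of them, next to 10.3% of all genes). The list's median log2 change was -0.21. Mmp19, a widely expressed soluble MMP, fell by 0.75 (adjusted p = 0.0290), Mmp12, the macrophage elastase, by 0.49 (0.0417) and Mmp23 by 0.41 (0.0357, all in edgeR). No MMP was called without day 14 replicate 1, day 14 replicate 3 or vehicle replicate 1, and 1 was without vehicle replicate 3. With NP 5 fell and 0 rose (31.2% of the list, next to 14.7% of all genes), although the list's median was 0.09. Mmp23 fell by 0.59 (adjusted p = 0.00479) and Mmp3, stromelysin, by 0.43 (0.0162). Mmp2, the gelatinase that Timp2 helps to activate, fell by 0.53 (0.0176 in edgeR), and its activator Mmp14 by 0.59 (0.0339). In CPM, Mmp2 averaged 436.9 ± 34.2 on day 14, 364.9 ± 63.9 with vehicle and 302.9 ± 49.4 with NP. Mmp14 averaged 193.1 ± 19.6, 138.4 ± 36.9 and 128.2 ± 19.7 in the same order. Neither was called with vehicle or between NP and vehicle. Mmp2 was no longer called once day 14 replicate 2 or NP replicate 4 was left out (-0.47 and -0.46, adjusted p = 0.0511 and 0.0577 in edgeR). Mmp14 was no longer called once any of day 14 replicates 1, 2 and 3 or NP replicates 1, 2 and 4 was left out (-0.63 to -0.49, adjusted p from 0.0598 to 0.0894 in edgeR). Mmp19 fell by 0.72 (0.0273 in edgeR), and was no longer called once day 14 replicate 1 or 3 or NP replicate 2 or 4 was left out. The NP call of Mmp3 ended without day 14 replicate 3 or NP replicate 4. Mmp23 was called in every fit without one library. The count was 3 without day 14 replicate 1 or 2 and 2 without day 14 replicate 3 or NP replicate 4.

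Mmp9, a granule protease of neutrophils that TIMP1 binds, averaged 5.89 ± 2.07 CPM on day 14, 10.4 ± 4.81 with vehicle and 34.2 ± 47.2 with NP. It was not called in any comparison. Its NP mean rests on replicate 3, at 104.9 CPM, the library with the high neutrophil markers: the NP minus day 14 difference was 2.55, and 0.87 without that library (adjusted p = 0.0814 and 0.144 in edgeR). Mmp8, the neutrophil collagenase, differed by 1.73 between NP and day 14, and by -0.20 without that library (adjusted p = 0.206 and 0.589 in edgeR).

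Between NP and vehicle edgeR called no MMP gene. Mmp12 had the smallest p among them: its TPM was 126.8 to 158.5 with NP and 63.0 to 106.1 with vehicle, so these groups did not overlap. The share of all genes without overlap was 3.55% in CPM and was not counted in TPM. The difference was 0.65 (SE 0.14, interval 0.35 to 0.96; unadjusted p = 0.000457, adjusted p = 0.557 in edgeR). DESeq2 called Mmp12 at a difference of 0.66 (adjusted p = 0.0152), and the other fits of this comparison did not.

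Of 26 ADAM and ADAMTS genes tested, 1 rose (Adam19, by 0.24 and 0.22) and 5 fell in each comparison with day 14 (23.1% called, next to 10.3% and 14.7% of all genes). Adam12, a metalloprotease of activated mesenchymal cells, fell by 0.75 with vehicle and by 0.95 with NP (adjusted p = 0.00974 and 0.00217 in edgeR), and was called in every fit that left out one library. Adamts2, the procollagen N-propeptidase, fell by 0.49 and 0.75. With vehicle it was no longer called once replicate 2 or 3 of day 14, or vehicle replicate 1 or 3, was left out. The number that fell with vehicle was 1 when day 14 replicate 3, vehicle replicate 1 or vehicle replicate 3 was left out, and 3 when vehicle replicate 4 was. With NP it was 8, 2 and 3 without day 14 replicate 2, day 14 replicate 3 and NP replicate 4. Adam19 was no longer called after leaving out replicate 1 or 3 of day 14 or most single day 21 libraries of the group compared (vehicle 2, 3 and 4, or NP 1, 2 and 4), and with NP also without vehicle replicate 3. Adam17, the main sheddase inhibited by Timp3, differed by -0.12 and -0.09 with neither called.

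**Figure D5:**
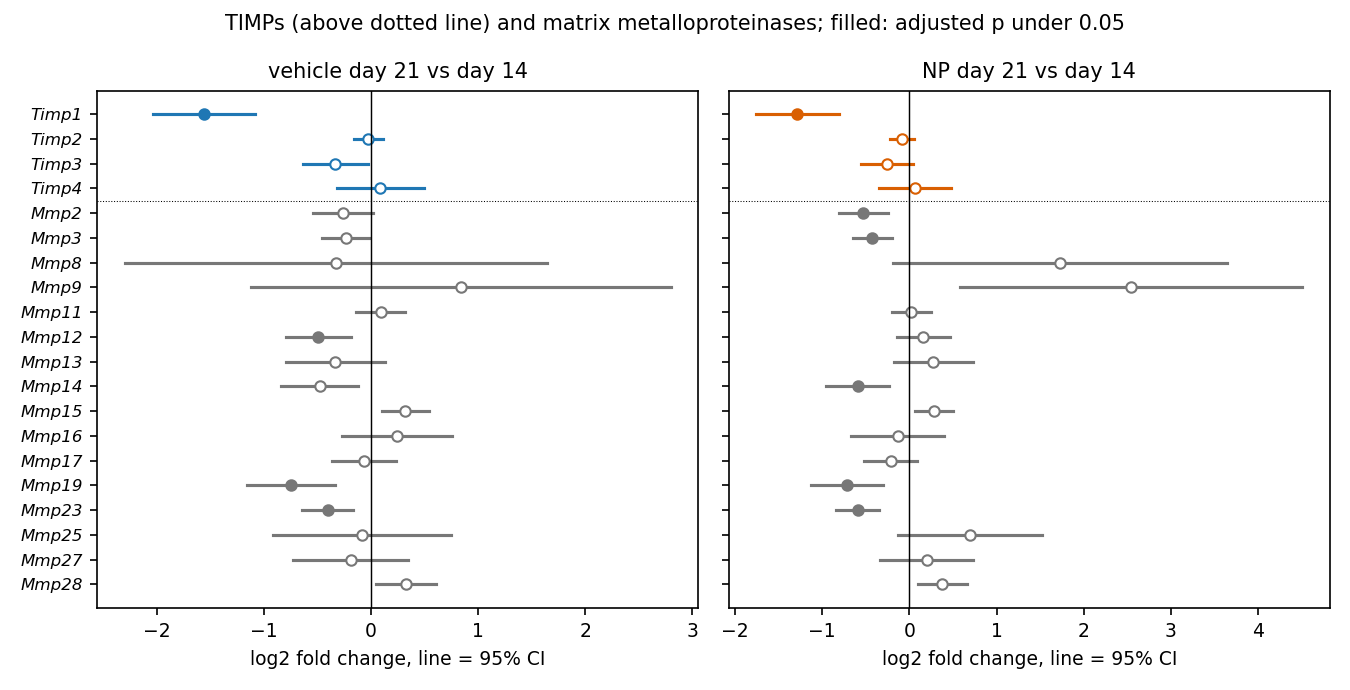
Log2 fold changes from day 14 with 95% confidence intervals for the 4 TIMP genes (above the dotted line) and the 16 MMP genes tested, vehicle at left and NP at right; filled points passed an adjusted p of 0.05 in edgeR. Timp1 has the lowest value in both panels, and the intervals of Mmp8 and Mmp9 are the widest.

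Ratios of TPM place each inhibitor beside a protease or receptor it is known to bind. Timp2 to Mmp2 was 1.96 ± 0.39 on day 14, 2.41 ± 0.40 with vehicle and 2.61 ± 0.34 with NP. Timp2 to Mmp14 was 3.71 ± 0.58, 5.34 ± 1.29 and 5.09 ± 0.85. Timp1 to Mmp9 was 25.6 ± 12.1, 5.82 ± 3.75 and 4.10 ± 2.41, and was under 1 (0.770) in NP replicate 3. Over all 4 inhibitors and 23 MMP genes the ratio of summed TPM was 1.41 ± 0.20, 1.49 ± 0.21 and 1.36 ± 0.12, with overlapping ranges. These are ratios of transcripts, not of active protein.

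Among 12 genes for TIMP binding partners and receptors, 1 fell with vehicle (8.33%, next to 10.3% of all genes) and 3 with NP (25.0%, next to 14.7%), and 0 rose. Mmp2 and Mmp14, given above, are 2 of these 3, and the NP count was 1 without NP replicate 4. Cd63, the tetraspanin that binds TIMP1, averaged 277.0 ± 28.4 CPM on day 14, 218.6 ± 23.8 with vehicle and 200.1 ± 24.4 with NP. With NP it fell by 0.47 (adjusted p = 0.00916 in edgeR), called in every fit without one library. With vehicle it fell by 0.34 (0.0479), a call that ended when any of replicates 1 to 3 of day 14, replicates 1 to 3 of vehicle or replicates 1 and 2 of NP was left out. The TPM of Timp1 over that of Cd63 was 0.142 ± 0.033 on day 14, 0.062 ± 0.010 with vehicle and 0.080 ± 0.012 with NP. Reck, a membrane-anchored MMP inhibitor, differed by 0.25 and 0.23, uncalled.

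Of 18 tested genes for other extracellular protease inhibitors, 6 fell and 0 rose in each comparison with day 14 (33.3%, next to 10.3% and 14.7% of all genes). Serpina3n, an acute-phase serpin, fell by 1.05 with vehicle and 0.86 with NP (adjusted p = 0.00437 and 0.00705 in edgeR). It was called in every fit without one library, while the count with vehicle was 3 when day 14 replicate 3, vehicle replicate 1 or vehicle replicate 3 was left out. Between NP and vehicle 0 of these genes were called.

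Among 19 genes of the IL-6 family, its receptors and STAT3 targets, a pathway known to induce Timp1, 5 fell with vehicle (26.3%, next to 10.3% of all genes) and 3 with NP (15.8%, near the 14.7% of all genes). Serpina3n, given above as a protease inhibitor, is also among these genes that fell in each comparison. Socs3, the feedback inhibitor of STAT3 signalling, fell by 0.90 with vehicle (adjusted p = 0.0131 in edgeR) and was called in every fit without one library. With NP it fell by 0.62 (adjusted p = 0.0440 in edgeR), a call that held in the fit without NP replicate 3 and in none of the other 11 that left out one library. The vehicle count was 2 without day 14 replicate 3, NP replicate 1 or any one vehicle library, and 3 without day 14 replicate 4 or NP replicate 2. The NP count was 1 without day 14 replicate 1 or 3 or NP replicate 1, 2 or 4, and 6 without NP replicate 3. Among 14 genes of the TGF-beta pathway, 5 fell and 1 rose in each comparison (42.9%, next to 10.3% and 14.7% of all genes). Tgfbr3, a TGF-beta co-receptor, rose by 0.37 and 0.35. With vehicle it was no longer called once day 14 replicate 3, vehicle replicate 1 or vehicle replicate 3 was left out, and with NP once replicate 2 or 3 of day 14 or replicate 2 or 4 of NP was. Inhba, an activin subunit, fell by 1.22 and 1.25 (adjusted p = 0.00449 and 0.00280 in edgeR). The NP count of falls was 2 without day 14 replicate 1 or 3 or NP replicate 2, and 3 without day 14 replicate 2 or NP replicate 1 or 4.

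Markers of several cell types also differed from day 14. The summed TPM of 9 markers of transitional epithelium, the keratin 8-high state of regenerating alveoli, was 1303 to 1476 on day 14, 896.9 to 1059 with vehicle and 878.9 to 1159 with NP. All 9 fell with vehicle and 8 (88.9%) with NP, next to 10.3% and 14.7% of all genes, Krt8 by 0.50 and 0.56 (adjusted p = 0.00629 and 0.00238 in edgeR). In the fits without one library 6 to 9 fell in each comparison. Under the other settings 5 to 9 fell with vehicle and 6 to 8 with NP. For 10 markers of SPP1-type macrophages the sums were 4029 to 4711, 2519 to 3367 and 2507 to 3488, and 6 (60%) and 3 (30%) fell. The 6 include Mmp12 and Cd63, given above, and Lgals3, also a marker of transitional epithelium here. Cd63 is also among the 3. The vehicle count was 1 when day 14 replicate 3 or vehicle replicate 1 was left out and 3 when day 14 replicate 1 or vehicle replicate 3 was, and the NP count was 5 without NP replicate 3. For 10 markers of dividing cells the sums were 283.5 to 321.9, 146.1 to 202.1 and 125.9 to 183.4, and all 10 fell in each comparison. With vehicle 8 to 10 of these fell in the fits without one library and 7 to 10 under the other settings. Among 12 general macrophage markers 6 (50%) and 3 (25.0%) fell, with sums of 1756 to 2221, 1131 to 1365 and 1018 to 2957. The vehicle count was 2 or 3 when replicate 1 or 3 of day 14 or of vehicle was left out, and the NP count was 0 or 1 when replicate 1 or 3 of day 14 or replicate 2 or 4 of NP was, and 8 when NP replicate 3 was.

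For 12 fibroblast markers the sums overlapped, at 3143 to 3467, 3266 to 3926 and 3316 to 3640. Nonetheless 4 fell with vehicle and 5 with NP, and Inmt rose by 0.75 in each (41.7% and 50% called). Inmt alone held 42.3% of the list's mean TPM, so the sums follow it more than any other marker. For this list and those that follow, 10.3% of all genes were called with vehicle and 14.7% with NP. Col1a1, the main chain of type I collagen, fell by 0.94 and 1.15 (adjusted p = 0.00312 and 0.000758 in edgeR), and was called in every fit without one library. The vehicle count of falls was 2 when any of replicates 2 to 4 of day 14 or replicates 1, 3 and 4 of vehicle was left out. Of 9 scar fibroblast markers 3 fell with vehicle and 5 with NP (33.3% and 55.6%), among them Tnc, an injury-induced matrix protein, in each. The vehicle count ranged from 1 (without day 14 replicate 3, vehicle replicate 1 or vehicle replicate 3) to 5 (without NP replicate 3 or 4 or vehicle replicate 2). The NP count was 2 or 3 when replicate 1 or 3 of day 14 or replicate 1, 2 or 4 of NP was left out. Of 6 platelet markers 0 were called with vehicle and 5 rose with NP (83.3%). Their median log2 change was 0.58 with vehicle and 1.33 with NP. Between NP and vehicle 0 of the 6 were called, at a median of 0.57. The platelet count with NP was 4 or 5 in the fits without one library and 2 to 5 under the other settings. Of 8 alveolar type 2 markers 3 rose with vehicle (37.5%) and 2 with NP (25.0%). In the fits without one library these counts were 0 to 4 and 1 to 4. Of 7 airway markers 2 rose in each (28.6%), and of 7 alveolar type 1 markers 1 rose and 2 fell (42.9%). Of 10 endothelial markers 0 rose with vehicle and 1 with NP (10%). Of 10 smooth muscle and pericyte markers 1 and 2 fell (10% and 20%). No marker of 10 for heart muscle, 6 for T cells, 5 for B cells or 8 for neutrophils was called. No marker of these lists was at 0 in all libraries. The part of these cells in the Timp1 values was not tested.

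Likeness of pattern was described by Pearson's r of log2 CPM over the 12 libraries, among 13292 genes of adequate level. The libraries share depth, composition and the 3 groups, so r is also given after centring each group on its mean. The genes most like Timp1 were Timm50 (r = 0.978, 0.871 centred), Psmd8 (0.972, 0.867), Cxcl16 (0.971, 0.858), Sfn (0.969, 0.895) and Gapdh (0.965, 0.805). After centring they ranked 28th, 37th, 49th, 16th and 150th. In all 233 genes had r above 0.9, and 15 after centring. The sizes of change differed: with vehicle Sfn, an epithelial 14-3-3 protein, fell by 1.03 and Timm50, a mitochondrial import protein, by 0.32. Timp2 was most like Ehd2 (0.920, 0.945 centred), the only gene above 0.9 before centring. After centring 28 genes were above 0.9, and Ehd2 ranked 6th. Timp3 was most like Slc35g1 (0.964, 0.955) and Hk2 (0.963, 0.948), with 45 genes above 0.9 and 74 after centring. Timp4 was most like Sod1 (0.889, 0.904), with 0 genes above 0.9 and 4 after centring. Between the TIMP genes r was 0.497 for Timp2 and Timp3 (0.469 centred), 0.478 for Timp1 and Timp3 (-0.125) and 0.203 for Timp1 and Timp2 (-0.248).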

How the data were processed

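Whole lung lobes had been homogenised in TRIzol, and polyA libraries from a TruSeq-based kit sequenced with paired-end reads, per the labels' protocols. Tools named in the submitters' processing notes were RSEM 1.3.3 and STAR 2.7.8a for build GRCm38, beside MultiQC 1.20, FastQC 0.11.8 and cutadapt 4.8. Details of strand setting, annotation release and filters are not given in the sources used here. Per the labels, each library was 1 mouse. The authors deposited RSEM expected counts as whole numbers, TPM and FPKM per gene, unpooled. Expected counts were tested in edgeR 4.0.16 (R 4.3.3) with filterByExpr (minimum count 10, minimum total 15), TMM scaling and one robust quasi-likelihood fit of all 12 libraries, two-sided, with Benjamini-Hochberg adjustment over 17909 genes. DESeq2 1.42.0 and limma 3.58.1 on log2 of TPM or FPKM plus a pseudocount (1 or 0.1) were alternatives, beside each library left out. The code was tested on simulated data. Total counts per library bound precision: 3 counts corresponded to 0.0719 to 0.125 CPM. Replicate pairs differed beyond sampling noise (chi-square per degree of freedom 8.15 to 33.1 over 18 pairs), so none was counted as 1 sample. The rule picks the 4 members by name alone, but this gene family and the gene lists were chosen with earlier results of these data known, so no list test or list-wise adjusted p is given. The text names all 4 TIMP genes, up to 3 called genes per list and direction, and fixed partners (Mmp2, Mmp9, Mmp14, Cd63, Reck and overlapping genes). Other genes named beside them (Adam17, Mmp8 and marker genes) were chosen after values were seen. One named gene that the rule selects is not reported here. Sequences and promoters are RefSeq's on GRCm38.p6, and no protein sequence was used here.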

Additional observations from a re-analysis of the deposited data

How the results depend on the processing

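Timp1 kept its direction and call against day 14 in all 24 other fits per comparison: -1.68 to -1.42 with vehicle and -1.45 to -1.14 with NP when one library was left out. The vehicle minus day 14 difference of Timp2 turned to 0.022 on FPKM (pseudocount 1), 0.00684 on TPM (pseudocount 0.1) and 0.00682 (pseudocount 1, with or without the filter), and ranged from -0.0648 to 0.00882 without one library. Timp4 had no value on FPKM. On TPM its vehicle difference was -0.172 (pseudocount 0.1) and -0.0933 (pseudocount 1, both filters), and its NP minus day 14 difference -0.200 and -0.102. Without one library these ranged from -0.0201 to 0.226 and from -0.0313 to 0.207, and NP minus vehicle from -0.118 to 0.0977. Timp3 NP minus vehicle ranged from -0.0266 to 0.147, and vehicle minus day 14 from -0.438 to -0.25.

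Same-numbered libraries did not vary together (correlation of deviations -0.0744 to 0.148 over 12 pairs, 2 of them over 0.1, and 4 of 12 libraries best matched by their own number), so the numbers were not taken as pairs. With a replicate block, Timp3 vehicle minus day 14 was -0.329 (adjusted p = 0.0414 in edgeR).

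Genes called with vehicle, 1845, were 1055 on FPKM, 940 and 974 on TPM with pseudocounts of 0.1 and 1, 381 on TPM unfiltered, and 719 to 2162 without one library (719 and 1012 without day 14 replicates 3 and 1, 744 and 866 without vehicle replicates 1 and 3). Genes called with NP, 2636, were 1567, 1506, 1522 and 824 in the same order, 1672 from a fit of those 2 groups alone, and 1363 to 2934 without one library (1363 and 1570 without day 14 replicates 3 and 1, 1384 and 1625 without NP replicates 4 and 2). Members of the gene lists called were 76 with vehicle (27 on unfiltered TPM, 37 to 89 without one library) and 77 with NP (39, and 50 to 105). Between NP and vehicle, DESeq2 called 19 genes and 1 list member (Mmp12), and limma on TPM with a pseudocount of 0.1 called 1 gene. The cause was not tested in any case. The 4 lungs per group leave changes of Timp4 under about 0.4 on the log2 scale unresolved.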
